A study of Mus musculus with 50 samples.

Results

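The tumours described here are the 12 with the highest and the 12 with the lowest Nqo1 signal, 24 of the 50 mammary tumours of the series. They were found by ranking 47 tumours on the log2 expression of Nqo1 after 3 tumours (mid60, mid79 and mid100) had been left out, and the 23 tumours between the groups served as a further set. The ranking is a measured value and not a group of the study, whose labels put all 50 tumours together and give no response, batch or age. Every tumour was a biopsy from a female MMTV-Erbb2 mouse, in which the long terminal repeat of mouse mammary tumour virus drives the receptor kinase Erbb2 in mammary epithelium. The mice were progeny of hybrids of C57BL/6J and FVB/NJ crossed to FVB/NJ carriers of the transgene, so both groups share the transgene and the mice differ in the C57BL/6J segments they inherited. Biopsies preceded the drug, which the series title gives as doxorubicin and the treatment field as docetaxel. Total RNA was measured on 1 Affymetrix array per tumour, and the number of arrays limits the precision.

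Nqo1 encodes NAD(P)H quinone dehydrogenase, a cytosolic enzyme that reduces quinones directly to hydroquinones, and it is among the genes most often used to read the activity of the transcription factor NRF2 (Nfe2l2). NRF2 is bound in the cytosol by Keap1, which hands it to a Cul3 ubiquitin ligase for degradation. Oxidants and electrophiles modify Keap1, after which NRF2 gathers in the nucleus, pairs with a small Maf protein and binds antioxidant response elements in genes of glutathione synthesis, thioredoxin reduction, NADPH supply, haem breakdown and drug conjugation. The comparison asked whether those genes differed between tumours chosen on Nqo1 alone.

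Nqo1 was read by 1 probe set, 17512732. In the 12 high tumours its log2 expression ran from 7.92 to 8.79 with a median of 8.17, and in the 12 low tumours from 5.65 to 6.65 with a median of 6.30. The means were 8.28 ± 0.27 (SD, n = 12) and 6.24 ± 0.28 (SD, n = 12), a difference of 2.04, or 4.10-fold, that the choice of groups fixes and that was not tested. With 1 probe set and no genotypes used here, a sequence difference between C57BL/6J and FVB/NJ under its probes was not tested as a part of these values. The last tumour inside the high group, mid30, had 7.92 and the nearest outside it, mid43 and mid82, had 7.76. The last inside the low group, mid147, had 6.65 against 6.73 in the nearest tumours outside it. The values formed a continuous series with no wide gap at either bound, and the 23 middle tumours spanned 6.73 to 7.76. In the 3 tumours left out Nqo1 was 6.04, 6.14 and 6.60, all within the range of the low group.

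**Figure D1:**
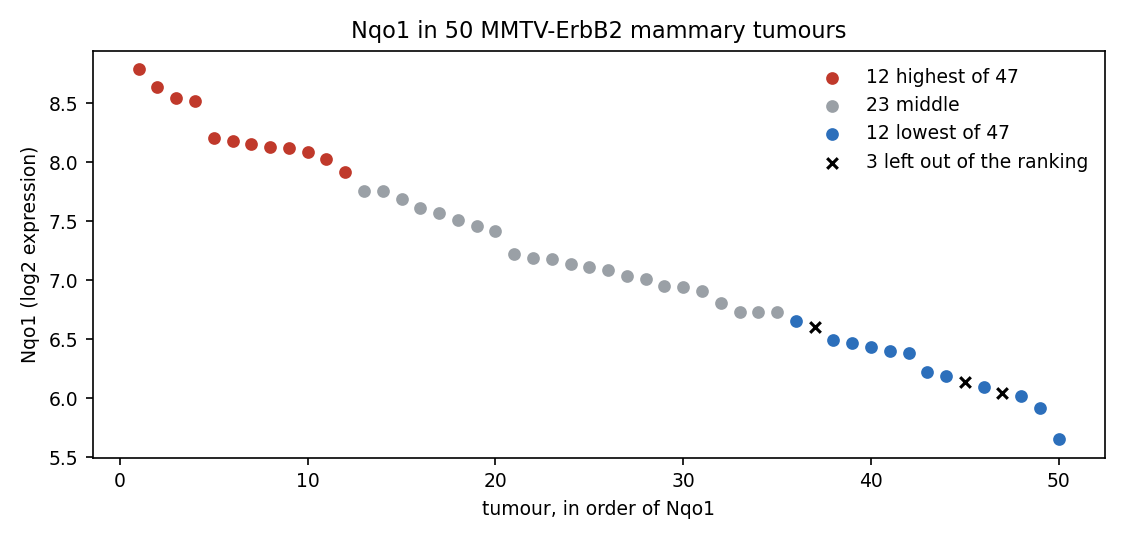
Log2 expression of Nqo1 (vertical axis) in the 50 tumours in order of that value (horizontal axis), with 1 point per tumour. The 12 high tumours (red) lie between 7.92 and 8.79, the 12 low tumours (blue) between 5.65 and 6.65, the 23 middle tumours (grey) between them, and crosses mark the 3 tumours left out.

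The labelled tissue was checked against its markers. Epcam, an adhesion protein of epithelium, ran from 10.94 to 11.68 in the high and from 11.29 to 11.72 in the low tumours, and Erbb2 from 11.10 to 11.94 and from 11.16 to 11.92. Of 14 tested luminal epithelial markers 6 lay higher in the high tumours, with a median log2 difference of -0.0054. None passed the test between the groups, against 0.138% of all tested genes, a count too close to that background to be read as a result. Averaged over all pairs with other arrays, an array's correlation lay between 0.9727 and 0.9814 in the high and between 0.9668 and 0.9802 in the low group, with mid9 lowest, against 0.916 to 0.9542 in the 3 tumours left out. These are whole biopsies, so fewer cells of a type and less RNA per cell cannot be told apart.

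For NRF2 targets the differences between the 12 high and 12 low tumours lay on both sides of 0, and none passed the test. Of 60 listed targets 48 were measured by a probe set of their own and 41 passed the filter on low signal, and 0 of the 41 were called by limma at a Benjamini-Hochberg adjusted p under 0.05, against 0.138% (23) of the 16634 genes tested, so that the count itself is at the background. Their median log2 difference was 0.0033, beside -0.0067 over all tested genes, and 22 of the 41 differences were above 0, beside 7906 of 16634. Single targets ran from -0.69 (Gstm2) to 0.66 (Slc40a1). At an unadjusted p under 0.05, 3 targets were higher and 4 lower, 17.1% of the 41 against 11.9% of all tested genes. The upper 95% confidence bound of the difference lay below 1 log2 unit for 39 of the 41 targets and below 0.5 for 35. The shares over all tested genes were not computed for these bounds. It lay below the 2.04 of Nqo1 for 41, but the choice of groups fixed that value. Among the 23 called genes the largest difference was 1.54, so a bound below 2.04 says little about the targets. In the limma regression on Nqo1 over all 47 tumours 0 targets were called, with a smallest adjusted p of 0.112, against 1.33% of all tested genes. When all 50 tumours were ranked 0 of the 16634 genes were called, so the count of targets there could not be above 0.

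Among the regulators, 9 of 10 listed genes were tested and 0 were called. Nfe2l2 ran from 8.26 to 9.12 (median 8.55) in the high and from 8.47 to 9.20 (median 8.73) in the low tumours, so the groups overlapped over nearly their whole range. The difference was -0.13 ± 0.10 (SE; 95% confidence interval -0.34 to 0.08; limma adjusted p = 0.675). Keap1, the sensor that holds NRF2 in check, ran from 7.02 to 7.58 and from 6.86 to 7.59, a difference of 0.04 (interval -0.14 to 0.21; limma adjusted p = 0.914). Nfe2l1, a related factor of the endoplasmic reticulum membrane that also binds antioxidant response elements, ran from 7.84 to 8.39 in the high and from 7.68 to 8.23 in the low tumours, and 6 of 12 high tumours lay above the highest low tumour. Its difference of 0.27 ± 0.07 (SE) had a limma adjusted p of 0.138. Cul3 differed by 0.01, the small Maf genes Mafg, Maff and Mafk by -0.02, -0.06 and 0.22, and the repressor Bach1 by 0.08, none of them called. In the 23 middle tumours 1 of the 9 regulators had a positive slope on Nqo1. A negative slope at an unadjusted limma p under 0.05 was found for 2 of 9, against 3.94% of all genes, and 0 passed the adjusted one. These are RNA levels, whereas NRF2 is controlled mainly through its protein.

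Glutathione is made by glutamate-cysteine ligase, of which Gclc is the catalytic and Gclm the modifier subunit, followed by glutathione synthetase (Gss), and Gsr returns its oxidised form. Gclm ran from 8.87 to 9.65 (median 9.04) in the high and from 8.71 to 9.47 (median 8.95) in the low tumours. Only 1 high tumour exceeded the highest low one, and the difference was 0.10 ± 0.09 (SE; 95% confidence interval -0.08 to 0.28; limma adjusted p = 0.697). Gclc ran from 7.33 to 8.23 and from 7.53 to 8.30, a difference of -0.01 (interval -0.21 to 0.19). Gss differed by -0.20 (interval -0.45 to 0.04) and Gsr by 0.01 (interval -0.22 to 0.24). The cystine-glutamate exchanger Slc7a11, which supplies cysteine for this pathway, lay below the filter and differed by 0.30 ± 0.20 (SE; limma adjusted p = 0.652 without the filter).

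The upstream sequences of 3 NRF2 targets are shown, Nqo1 because the groups rest on it, and Gclm and Txnrd1 because their windows hold the core of an antioxidant response element. Each is the 250 bases before a RefSeq transcription start on GRCm38.p6, written 5′ to 3′ on the strand of the gene, in lower case with matches to TGACNNNGC, read on both strands, in capitals. Nqo1 is chr8:107403206-107403455 on the minus strand, Gclm chr3:122245307-122245556 on the plus strand, and Txnrd1 chr10:82858956-82859205 on the plus strand, 1 of its 3 listed starts.
Nqo1: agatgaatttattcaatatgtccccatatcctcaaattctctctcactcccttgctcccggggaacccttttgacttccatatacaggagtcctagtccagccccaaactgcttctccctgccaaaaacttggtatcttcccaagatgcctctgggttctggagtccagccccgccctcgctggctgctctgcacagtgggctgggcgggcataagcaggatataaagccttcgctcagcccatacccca
Gclm: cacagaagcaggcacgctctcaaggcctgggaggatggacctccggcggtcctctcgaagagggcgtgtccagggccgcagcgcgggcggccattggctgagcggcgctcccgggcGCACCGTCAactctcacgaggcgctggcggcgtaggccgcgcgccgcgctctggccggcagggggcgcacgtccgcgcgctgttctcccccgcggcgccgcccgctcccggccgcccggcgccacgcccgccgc
Txnrd1: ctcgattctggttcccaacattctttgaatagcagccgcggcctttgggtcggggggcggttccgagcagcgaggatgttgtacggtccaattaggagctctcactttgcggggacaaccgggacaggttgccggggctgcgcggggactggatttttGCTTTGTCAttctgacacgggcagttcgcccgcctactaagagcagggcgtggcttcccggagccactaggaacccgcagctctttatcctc
The match is GCACCGTCA in Gclm, with its first base 134 bases before the start, and GCTTTGTCA in Txnrd1, 92 bases before it. The window of Nqo1 holds no match, which says only that these letters are not in these 250 bases. TGACNNNGC occurred in the windows of 11.5% of the 27025 genes of the table (10.2% of 32851 starts) and in 13 of the 49 listed targets the table holds, among them Gclm, Txnrd1, Mgst1, Abcc2, Blvra and Ugdh. A match is a description of letters and not a binding site.

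Glutathione transferases conjugate glutathione to electrophiles. Of 9 tested members 0 were called, 3 differences were above 0, and the median was -0.07. Mgst1, a membrane-bound member, ran from 9.10 to 9.73 (median 9.44) in the high and from 9.01 to 9.42 (median 9.26) in the low tumours, and 7 of 12 high tumours lay above the highest low tumour. Its difference of 0.21 ± 0.07 (SE) had the smallest adjusted p of the targets, 0.237 by limma. Gstm2 went the other way, from 5.32 to 6.73 in the high and from 5.52 to 8.62 in the low tumours, a difference of -0.69 ± 0.27 (SE; limma adjusted p = 0.287). The remaining transferases, Gsta3, Gsta4, Gstm1, Gstm4, Gstp1, Gstp2 and Mgst2, differed by -0.31 to 0.10. Transferases of one class are close in sequence, so probe sets of such genes can share signal.

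Thioredoxin reductase (Txnrd1) and sulfiredoxin (Srxn1) keep thioredoxin and peroxiredoxins reduced. Txnrd1 ran from 8.81 to 9.40 (median 9.16) in the high and from 8.63 to 9.52 (median 8.94) in the low tumours, with 0 high tumours above the highest low one. Its difference was 0.15 ± 0.09 (SE; 95% confidence interval -0.04 to 0.33; limma adjusted p = 0.559). Srxn1, a gene that responds strongly to NRF2, differed by 0.04 (interval -0.15 to 0.23) and Txn1, thioredoxin itself, by -0.02 (interval -0.24 to 0.20). Of 4 tested genes that supply NADPH, the malic enzyme Me1 differed by -0.02 and phosphogluconate dehydrogenase (Pgd) by 0.18. Transaldolase (Taldo1) differed by -0.32 ± 0.13 (SE) and isocitrate dehydrogenase (Idh1) by -0.27 ± 0.11 (SE), at limma adjusted p values of 0.327 and 0.321, and both had intervals below 0.

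Genes of haem and iron had the largest median difference among the target groups, 0.19, with 5 of 6 differences above 0 and 0 called. Slc40a1, the iron exporter ferroportin, ran from 7.20 to 9.28 (median 8.05) in the high and from 5.83 to 9.06 (median 7.12) in the low tumours. The low group was the wider one, and the difference of 0.66 ± 0.32 (SE; 95% confidence interval -0.01 to 1.33) had a limma adjusted p of 0.425. Hmox1, which opens the haem ring, varied more than any other tested target in both groups, from 7.79 to 10.92 and from 6.41 to 11.31, and its difference of 0.57 ± 0.49 (SE) had an interval of -0.44 to 1.59. The heavy chain of ferritin (Fth1) differed by 0.23 ± 0.11 (SE; limma adjusted p = 0.395), and the biliverdin reductases Blvrb and Blvra by 0.14 and -0.13. Macrophages also carry much Hmox1 and Slc40a1, and the mean level of 12 macrophage markers ran from 7.39 to 8.51 in the high and from 6.87 to 9.45 in the low tumours. The part of those cells in the values of Hmox1 and Slc40a1 was not tested.

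Among carbonyl and xenobiotic enzymes 0 of 8 were called. Aldehyde oxidase (Aox1) ran from 5.79 to 7.70 (median 6.26) in the high and from 5.2 to 6.39 (median 5.93) in the low tumours, a difference of 0.54 ± 0.19 (SE; limma adjusted p = 0.256). Its correlation with Nqo1 over 47 tumours, 0.399, was the highest of the tested targets. The other 7 (Akr1b8, Ces1g, Ugdh, Ephx1, Cbr1, Cbr3 and Ptgr1) differed by -0.11 to 0.09. The efflux pumps Abcc1 and Abcc3 differed by 0.24 and 0.21, Abcc2 and Abcc4 by -0.06 and -0.02. Osgin1, an oxidative stress response gene, differed by -0.23 ± 0.09 (SE; limma adjusted p = 0.321), the autophagy receptor Sqstm1 by 0.13 and Pir by 0.00. Besides Slc7a11, the targets below the filter were Gpx2, Gstm3, Gstm6, Akr1c12, Aldh3a1 and Cyp2a5, with differences of -0.10 to -0.01, and 0 of these 7 genes were called when the filter was lifted.

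**Figure D2:**
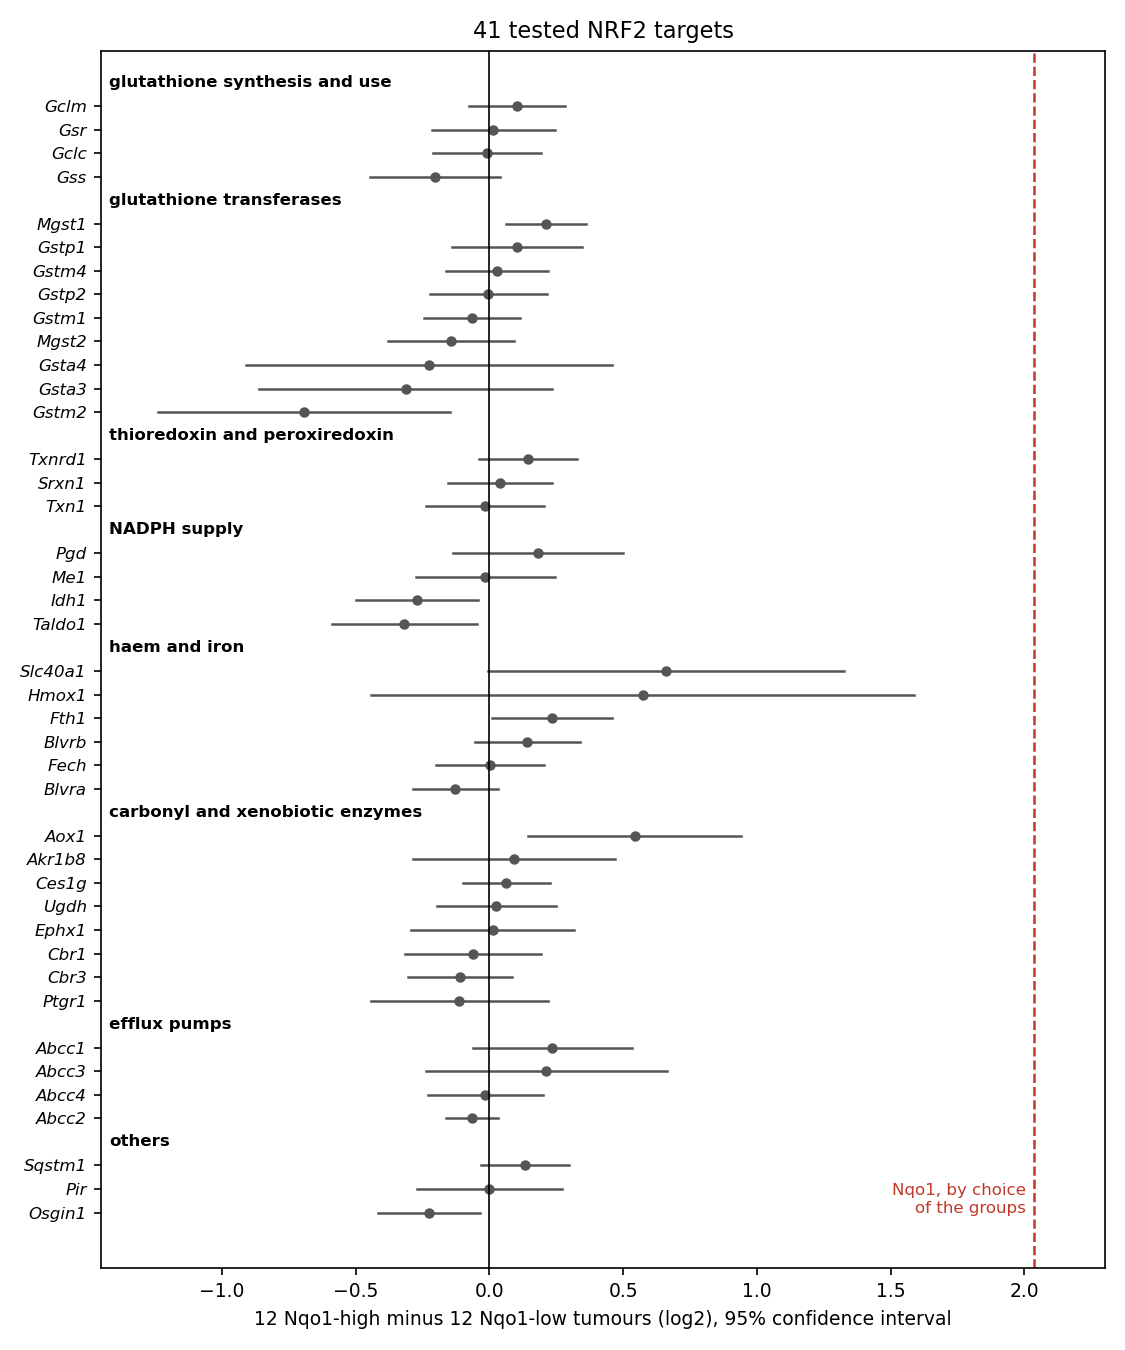
Log2 difference between the means of 12 Nqo1-high and 12 Nqo1-low tumours (horizontal axis) for 41 tested NRF2 targets grouped by function, with points for the difference and lines for its 95% confidence interval. The points lie between -0.69 (Gstm2) and 0.66 (Slc40a1), and 0 targets passed the test. All intervals end to the left of the dashed line at the 2.04 of Nqo1, a value fixed by the choice of groups.

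Correlations over the 47 tumours were tested for the targets of glutathione synthesis and use, thioredoxin and peroxiredoxin, and haem and iron. The other target groups were not put to this test. Among the genes of the groups used, Slc7a11 and Gpx2 lay below the filter on low signal. Nqo1 correlated with the 15 measured genes of these groups at r between -0.28 and 0.37. The highest was with Blvrb (r = 0.37, permutation p = 0.0104; rho = 0.39, permutation p = 0.00834; r = 0.38 without mid54 and mid42, the tumours farthest from the median of Nqo1). These p values are unadjusted, and the limma slope of Blvrb on Nqo1, adjusted over all tested genes, had p = 0.167. With Gclc, Gclm, Txnrd1, Srxn1 and Hmox1 Nqo1 correlated at -0.09, 0.18, 0.14, 0.09 and 0.21. With Slc40a1, Fth1 and Slc7a11 r was 0.31, 0.30 and 0.22, and with Gss and Blvra it was -0.23 and -0.28. An unadjusted permutation p under 0.05 was found for 3 of the 15 genes by r and for 3 by rho.

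All pairs among the same 15 genes were tested, and their median r was 0.14. Of these pairs 31 passed a permutation test of r with Benjamini-Hochberg adjustment over the pairs, 29 of them positive. The share that passes among pairs of other genes was not computed, so the count has no background to be read against. The part of cell content in these correlations between whole biopsies was not tested. Slc7a11, which lay below the filter, and Hmox1 correlated at r = 0.74 (rho = 0.75; r = 0.71 without mid9 and mid36). Gclm and Hmox1 correlated at r = 0.70 (rho = 0.68; 0.70 without mid2 and mid36), and Gclc and Gclm at r = 0.65 (rho = 0.64; 0.63 without mid87 and mid42). Each of these had the smallest p that 100000 permutations give, 1e-05, and an adjusted permutation p of 0.000117. A negative relation was found between Gss and Fth1, at r = -0.53 (rho = -0.47; r = -0.47 without mid114 and mid47; adjusted permutation p = 0.00165). Over all 48 measured targets, as a description, 33 of 1128 pairs had r above 0.5 and 0 targets had r above 0.5 with Nqo1, while the median size of r was 0.163 between targets and 0.151 with Nqo1. The pairs with r above 0.5 were therefore a small share of the list. Whether r with Nqo1 and r between targets differ was not tested.

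**Figure D3:**
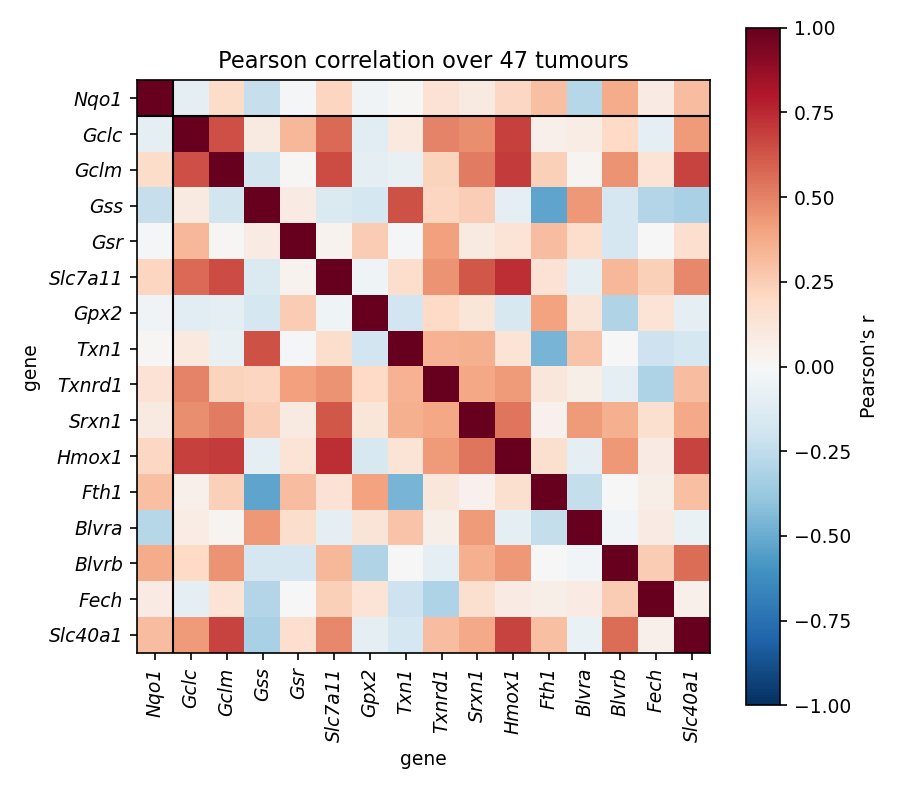
Pearson correlation over 47 tumours (colour, from -1 in blue to 1 in red) between Nqo1, in the first row and column, and 15 NRF2 targets on both axes. Gclc, Gclm, Slc7a11, Srxn1, Hmox1 and Slc40a1 are red with each other, up to 0.74, and the row of Nqo1 is pale, between -0.28 and 0.37.

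Across all genes other than Nqo1, 23 of 16634 were called between the groups (0.138%), 18 higher (0.108%) and 5 lower (0.0301%) in the high tumours, with limma adjusted p values between 0.0331 and 0.0489 and changes of 1.26-fold to 2.90-fold. No gene separated the groups completely: 0 of 16634 had all 12 high tumours on one side of all 12 low tumours. The calls lie close to the threshold, and their number depends on single tumours. Leaving out mid54, mid42, mid2, mid186, mid29 or mid105 left 0 calls, leaving out mid7 left 1, mid135 5, mid47 6, mid37 9, mid101 or mid147 12, mid16 13 and mid38 or mid114 14. Leaving out mid65 gave 36 and mid9 84, and with the 3 excluded tumours ranked as well 0 genes were called. A split of 8 against 8 tumours called 0, 16 against 16 called 2, and the proliferation score as a covariate left 0. The slope on Nqo1 over all 47 tumours, which include these 24, called 222 genes (1.33%), 129 higher (0.776%) and 93 lower (0.559%), among them 22 of the 23. The 23 genes kept their sign in all 851 alternative values. Those values come from tumours that overlap with the 24 that gave the calls, so the kept sign is no independent check.

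Serpinb5 (maspin), a serpin of mammary epithelium first known as a suppressor of tumour spread, had the highest correlation with Nqo1 of all tested genes over the 47 tumours (r = 0.71, as a description). It ran from 7.83 to 9.50 (median 8.63) in the high and from 5.04 to 8.32 (median 6.995) in the low tumours, and 10 of 12 high tumours lay above the highest low tumour. It was 2.80-fold higher, by 1.49 ± 0.27 on the log2 scale (SE; limma adjusted p = 0.0369, and 0.303 at most over the alternatives). Trps1, a GATA-type zinc finger repressor found in luminal mammary epithelium, ran from 10.62 to 11.30 and from 9.97 to 10.82. In 11 of 12 high tumours it exceeded the highest low tumour, and the difference was 0.49 ± 0.09 (SE; limma adjusted p = 0.0369, up to 0.306). Mfge8, a glycoprotein of the milk fat globule that bridges dying cells to phagocytes, ran from 10.68 to 12.84 and from 8.38 to 11.56 and had the largest change, 2.90-fold (limma adjusted p = 0.0476, up to 0.328).

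The 250 bases before the start of Serpinb5, the gene closest to Nqo1 in pattern, hold an AP-1 motif, TGANTCA, as TGAATCA in capitals with its first base 140 bases before the start. The window is chr1:106860925-106861174 of GRCm38.p6 on the plus strand, from RefSeq, written 5′ to 3′.
Serpinb5: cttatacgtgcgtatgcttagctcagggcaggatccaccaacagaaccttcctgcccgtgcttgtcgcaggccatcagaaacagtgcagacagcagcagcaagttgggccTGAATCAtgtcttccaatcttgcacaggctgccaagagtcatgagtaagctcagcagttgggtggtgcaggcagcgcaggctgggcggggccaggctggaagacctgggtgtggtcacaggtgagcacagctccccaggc
TGANTCA occurred in the windows of 7.82% of genes in the table and of 22.4% of the 49 listed NRF2 targets. Of the 11 genes called higher that the table holds Serpinb5 alone had the motif, and of the 3 called lower Sec14l1. TGACNNNGC, which can overlap TGANTCA, was in 0 of these 11 and 0 of these 3. GCGTG, the core of the element bound by the aryl hydrocarbon receptor, was in 7 of the 11 and 2 of the 3. It was in 30.9% of all genes and in 51.0% of the 49 listed NRF2 targets. None of the 3 motifs was in the window of Nqo1, and with so few genes the shares are a description.

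The other genes called higher had changes of 0.33 (Zc2hc1a) to 0.97 (Cyp4v3) on the log2 scale. They include Prkci, the atypical protein kinase C of epithelial polarity complexes (0.45), Epb41l5, a FERM domain protein at cell contacts (0.49), the actin bundler Pls3 (0.72), the tetraspanin Tspan2 (0.48), the hyaluronidase Cemip2 (0.56) and Reck, an anchored inhibitor of matrix metalloproteinases (0.53). Osmr, the receptor chain for oncostatin M, ran from 9.79 to 10.97 and from 8.80 to 10.42, a difference of 0.79. Dapk1, a calmodulin-dependent kinase linked to cell death, differed by 0.60, and the RNA-binding protein Rbpms by 0.46. Marchf3, Rnf39, Smim3 and Tmtc1 made up the rest. Dapk1, Rbpms and Sec14l1 kept their call when 17 of the 24 tumours were left out in turn, the most of the 23 genes, and Tspan2 for 5, the fewest.

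Of the 5 genes called lower, Creb3l1, a membrane-bound transcription factor of the secretory pathway, ran from 8.32 to 8.90 (median 8.59) in the high and from 8.68 to 10.08 (median 9.42) in the low tumours. In 9 of 12 low tumours it exceeded every high tumour, and the difference was -0.71 ± 0.14 (SE; limma adjusted p = 0.0397, up to 0.783). Sec14l1, of the lipid-binding Sec14 family, ran from 8.46 to 9.05 (median 8.68) in the high tumours, 10 of 12 low tumours lay above that range, and the median of the low group was 9.485. Its difference was -0.69 ± 0.12 (SE; limma adjusted p = 0.0331, up to 0.463). Atp2c2, a calcium and manganese pump of the secretory pathway found in mammary epithelium, differed by -1.04, Lrrc26, an auxiliary subunit of potassium channels in secretory epithelium, by -1.37, and Lrp11 by -0.49. The high group was the narrower one for Creb3l1 and Sec14l1, at SDs of 0.21 and 0.17 against 0.45 and 0.39.

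**Figure D4:**
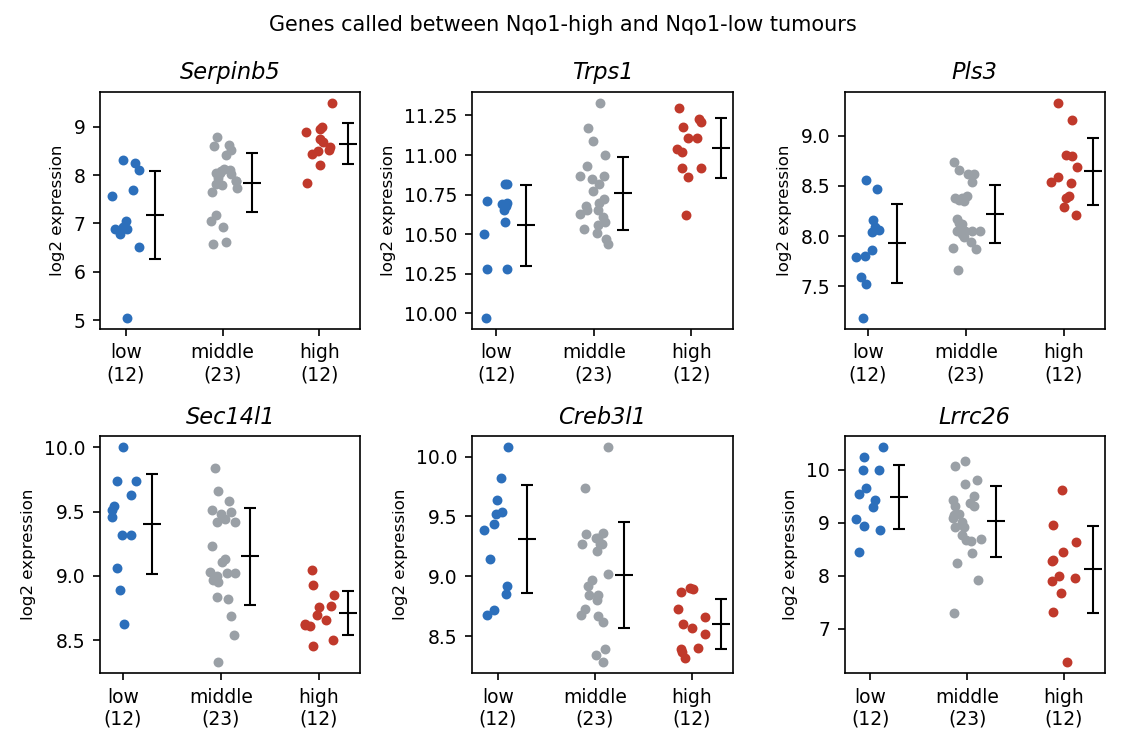
Log2 expression (vertical axes) of 3 genes called higher (Serpinb5, Trps1, Pls3) and 3 called lower (Sec14l1, Creb3l1, Lrrc26) in the 12 low, 23 middle and 12 high tumours, with 1 point per tumour and bars for the mean and SD. The groups overlap for each gene, as for Serpinb5 between 7.83 and 8.32, and the middle means lie between those of low and high tumours.

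The 23 middle tumours, which the split did not use, gave a further look at the same relation over a narrower range of Nqo1. With limma 0 of 16634 genes were called there, while 661 (3.97%) had a positive and 656 (3.94%) a negative slope at an unadjusted p under 0.05, and the smallest adjusted p was 0.0799. Of the 18 genes called higher 10 had a positive slope in the middle tumours, against 51.8% of all tested genes, and of the 5 called lower 5 had a negative one. Serpinb5 (0.71 per log2 unit of Nqo1, unadjusted p = 0.0491) and Creb3l1 (-0.66) passed an unadjusted p under 0.05 and not the adjusted one. Dapk1, Prkci, Cemip2 and Smim3 had slopes below 0, at -0.12, -0.07, -0.10 and -0.40. Among the NRF2 targets 22 of 41 had a positive slope.

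As a description, the 10 tested genes most like Nqo1 over the 47 tumours, by Pearson's r, were Serpinb5 (0.71), Trps1 (0.66), Muc1 (0.66), Zc2hc1a (0.66), Junos (0.64), Osmr (0.62), Wnt5b (0.62), Ntn1 (0.62), Pls3 (0.60) and Tmtc1 (0.60). No NRF2 target was among them. Muc1, the epithelial mucin, ran from 7.18 to 10.34 in the high and from 6.2 to 8.69 in the low tumours. It differed by 1.49 ± 0.36 (SE), as much as Serpinb5, and was not called in the comparison of 24 tumours (limma adjusted p = 0.0800), but was in the slope over 47 (limma adjusted p = 0.00143). Wnt5b and Ntn1, secreted ligands, differed by 0.69 and 0.75 and likewise passed in the slope over 47 tumours (limma adjusted p = 0.00329 for both) and not in the split.

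The remaining lists hold other stress pathways, growth genes and cell type markers, and 0 of their 248 tested members were called, a count too close to the background of 0.138% to be read as a result. Nqo2, the paralogue of Nqo1, ran from 5.93 to 6.63 in the high and from 6.2 to 6.83 in the low tumours, a difference of -0.29 ± 0.09 (SE; 95% confidence interval -0.46 to -0.11; limma adjusted p = 0.183). The aryl hydrocarbon receptor also controls Nqo1, and of 6 tested genes of that pathway Ahr differed by 0.28, its partner Arnt by 0.15 and its classical target Cyp1a1 by 0.07 (interval -0.07 to 0.21). Medians were -0.03 for 16 targets of the stress factor ATF4, -0.06 for 13 of p53, -0.07 for 10 heat shock genes, -0.15 for 15 hypoxia genes and -0.06 for 17 interferon response genes. The milk gene list had a median of 0.20 with 7 of 12 higher, and ERBB receptors and ligands had -0.03 with 5 of 13 higher. In the middle tumours 3 of the 12 milk genes had a positive slope. Of 15 hypoxia genes 5 lay higher, against 7906 of all 16634 tested genes. Hexokinase (Hk2) had the largest statistic of that list, at -0.39 (limma adjusted p = 0.222), while Car9, a carbonic anhydrase, differed by 0.74 (limma adjusted p = 0.318) and Ndrg1 by 0.60 (limma adjusted p = 0.371). The death receptor Fas, a p53 target, differed by 0.62 (limma adjusted p = 0.336). In the 23 middle tumours 0 of 17 interferon response genes had a positive slope on Nqo1, with a median of -1.003 per log2 unit, and 7 of 17 had a negative slope at an unadjusted p under 0.05, against 3.94% of all genes, while 0 passed the adjusted one.

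Proliferation genes had lower means in the high tumours without passing the test gene by gene. All 23 tested differences were below 0, with a median of -0.42 beside -0.0067 over all genes, and 0 were called. Aurka, a mitotic kinase, ran from 6.35 to 8.06 and from 7.35 to 8.62, a difference of -0.59 ± 0.18 (SE; limma adjusted p = 0.183), and Rrm2, a subunit of ribonucleotide reductase, differed by -0.87 ± 0.27 (SE; limma adjusted p = 0.185). Both passed in the slope over 47 tumours (limma adjusted p = 0.0255 and 0.0240). The mean level of the list ran from 6.93 to 8.20 (median 7.87) in the high and from 7.59 to 8.76 (median 7.96) in the low tumours. These medians lay near each other. Mki67 had an SD of 0.60 in the high and 0.30 in the low tumours, and was lowest in mid54 (8.75) and mid2 (8.82). Its r with Nqo1 over 47 tumours was -0.46 and its rho -0.27. Members of a list can move together, so counts of members here and below are not counts of independent observations. In the 23 middle tumours 22 of the 23 genes had a slope above 0, the other way. With the proliferation score as a covariate 0 of 16634 genes were called between the groups, and the part of proliferation in the 23 calls was not tested further.

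Cholesterol synthesis genes had 10 of 10 differences below 0, a median of -0.40 and 0 calls. Over all tested genes 7906 of 16634 differences were above 0. Cyp51, lanosterol demethylase, ran from 5.77 to 6.98 and from 6.08 to 8.10, a difference of -0.75 ± 0.23 (SE; limma adjusted p = 0.182, and 0.0305 in the slope over 47 tumours). These genes also had negative slopes in the middle tumours, 10 of 10. Of 9 basal and myoepithelial markers 7 lay higher, with a median of 0.30 and 0 called, led by Mylk (0.39), Krt17 (0.34) and Trp63 (0.35). The mean level of that list ran from 5.83 to 6.69 in the high and from 5.59 to 6.82 in the low tumours.

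Of 17 fibroblast and matrix markers 15 lay higher, against 7906 of all 16634 tested genes, with a median of 0.16 and 0 called. All 17 had negative slopes in the middle tumours. Their mean level ran from 6.79 to 9.06 in the high and from 6.79 to 10.49 in the low tumours. Macrophage markers had a median of 0.11, with 9 of 12 above 0 and 0 called. Cd14, a receptor for bacterial lipopolysaccharide, had the largest statistic of that list, at 1.05 ± 0.39 (SE; limma adjusted p = 0.279). Cd163 differed by -0.16 (limma adjusted p = 0.591). In the middle tumours 1 of the 12 macrophage markers had a positive slope, and 2 had a negative slope at an unadjusted limma p under 0.05. The slope of Cd14 there was -0.78. Endothelial, adipocyte, muscle, neutrophil, lymphocyte and squamous lists had medians between -0.12 and 0.00. In the middle tumours 0 of 13 endothelial and 0 of 9 adipocyte markers had a positive slope, but 6 of 6 B and plasma cell markers did. At an unadjusted limma p under 0.05 were 5 of the 13 and 2 of the 9, all negative, against 3.94% of all genes, and 0 passed the adjusted one. With the fibroblast, endothelial, macrophage and adipocyte scores as covariates 97 genes were called in place of 23, 21 of them shared, and 0 NRF2 targets.

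The backcross mice inherit segments of chromosomes whole, so genes near Nqo1 on chromosome 8 can share its segment. Of the 20 tested genes on each side, in RefSeq gene order, 0 of 40 were called, against 0.138% of all tested genes. A difference above 0 was found for 28 of the 40, against 7906 of all 16634 tested genes, and the median was 0.04. At an unadjusted limma p under 0.05 were 10 of the 40, against 11.9% of all tested genes. In the 23 middle tumours 33 of 40, and 10 of the 10 nearest, had a positive slope on Nqo1, against 51.8% of all tested genes. There 4 of 40 had a positive slope at an unadjusted limma p under 0.05, against 3.97%, and 0 passed the adjusted one. Among the 5 nearest on each side, Nfat5, the factor of the response to high salt, differed by 0.20 ± 0.07 (SE; limma adjusted p = 0.239) and the ubiquitin ligase Wwp2 by 0.65 ± 0.17 (SE; limma adjusted p = 0.103). Wwp2 ran from 7.85 to 9.92 (median 8.45) in the high and from 7.60 to 8.45 (median 7.85) in the low tumours, with 5 high tumours above the highest low one. Mir140, which lies within Wwp2 so that the signals may come from one transcript, differed by 0.61 ± 0.17 (SE; limma adjusted p = 0.143). Both passed in the slope over 47 tumours, at limma adjusted p values of 0.0168 and 0.0322. Nob1, Psmd7, Zfhx3, Cyb5b, Nip7, Terf2 and Cog8 differed by -0.02 to 0.13. Without mid9, Sntb2, which differed by -0.41, was called lower. The genotype of the tumours at this locus was not analysed here.

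**Figure D5:**
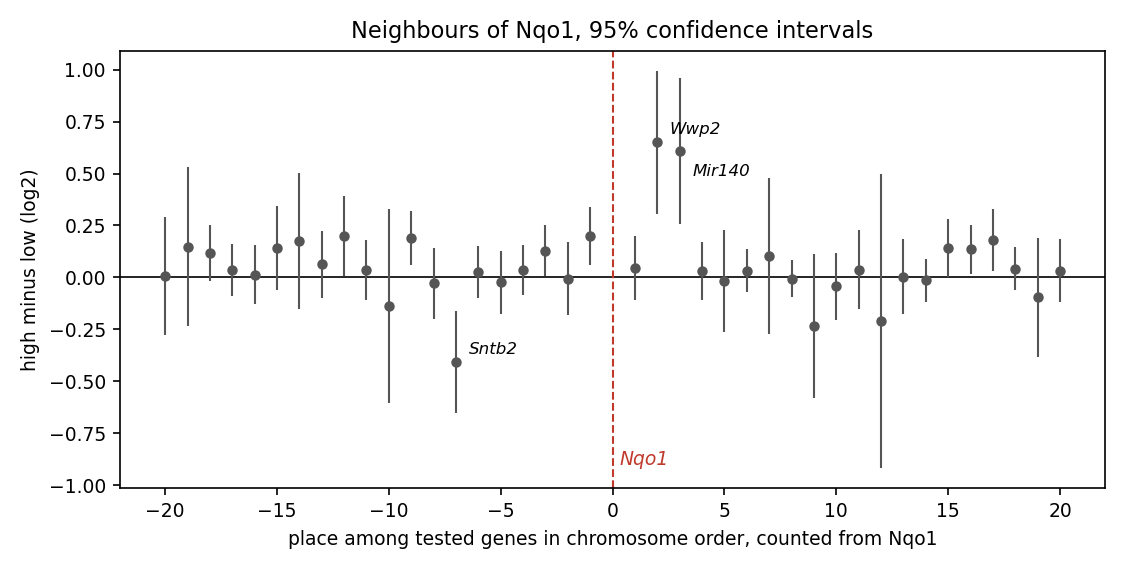
Log2 difference between 12 Nqo1-high and 12 Nqo1-low tumours (vertical axis; points, with 95% confidence intervals as lines) for the 20 tested genes on each side of Nqo1, by place in gene order (horizontal axis, with Nqo1 at 0). Wwp2 (0.65) and Mir140 (0.61) are the highest and Sntb2 (-0.41) the lowest, and 0 of the 40 genes passed the test.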

How the data were processed

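RNA from biopsies of 50 separate tumours was measured on Affymetrix arrays. The deposited values are log2 expression for 34472 probe sets, which the authors computed with RMA per the submitters' processing notes. No version of RMA is given, and the build mm8 is named there without a role. Its quantile step equalises the arrays and would hide a shift common to most genes.

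The platform annotation names 1 gene for 23521 probe sets (23328 matched to RefSeq by Entrez identifier), several for 1814 and no gene for 9137. Each of 22180 genes is represented by its brightest probe set on average, a choice that 1082 genes required. Genes with a mean under 4.39, the 25th percentile, were left out, as was Nqo1, which left 16634. High and low tumours were compared with limma 3.58.1 (lmFit, eBayes with trend; R 4.3.3), as were slopes on Nqo1 over 47 and over 23 tumours, with Benjamini-Hochberg adjustment over all genes tested and a threshold of 0.05. Correlations used 100000 permutations, two-sided. The tests were tried on simulated data with independent noise for each gene. These lack the correlation between genes of real tumours, so they do not show how the calls behave under it. Permutations and figures were made in Python 3.11.15 with scipy 1.17.1 and matplotlib 3.10.9.

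Names came from all measured NRF2 genes, the 5 nearest genes on each side of Nqo1 and the 10 highest correlations with it. They also came from the 10 highest and 10 lowest moderated statistics among called genes with the same sign over 47 tumours (18 and 5 were called). From each other list the 3 members with the largest statistic could be named. Not all genes under these rules are named above, and from some of the other lists none is. Other names were chosen after their values were seen. The tumours, the 3 left out, the members and the lists were chosen with earlier results of these data known. Promoter sequences are from RefSeq (GRCm38.p6).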

Additional observations from a re-analysis of the deposited data

How the results depend on the processing

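Over 50 genes of the NRF2 lists, 1844 alternative values gave 0 calls, but in 9 of the 37 alternatives no gene at all was called, so the count could not be higher there. The 23 calls did not hold as a count. They became 10 with no filter on dim genes, 57 with a filter at the 50th percentile, 37 after another quantile normalization, 45 with array weights, 43 with robust eBayes and no trend, 97 with 4 cell type scores as covariates and 0 with the proliferation score. With other splits they became 0 for 8 against 8 tumours, 2 for 16 against 16, 222 for the slope over 47 tumours and 0 when all 50 arrays were ranked. The mean of all probe sets gave 22, and a filter over all probe sets, added after seeing the data, gave 17. Leaving out 1 tumour at a time gave 0 to 84. The cause of these moves was not tested. By design the filters differ in how many genes are adjusted for, and the splits in how many tumours they hold. Over the 23 genes, 439 of 851 alternative values kept the call, 412 lost it and 0 changed sign. The alternatives share tumours with the split that chose these genes, so the kept sign is no independent check.

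The 0 calls among the 23 middle tumours became 1 with array weights and 0 to 3 when a tumour was left out (3 without mid128, 2 without mid33, 1 without mid87). In the slope over 47 tumours the 0 calls among other lists became 3 (Aurka, Cyp51, Rrm2) and those among neighbours of Nqo1 became 2, and leaving out 1 tumour gave 0 to 1 for the neighbours. Nqo1 has 1 probe set, so its ranking could not be checked with another, nor a strain difference under its probes. No paired analysis was possible because the labels give 1 group and tumour names that no other group shares.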
